A study of Homo sapiens with 48 samples.

Results

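Metallothioneins and the zinc-response genes around them were followed through 22Rv1, a human castration-resistant prostate cancer cell line, and its derivatives. The genes were MT1E, MT1F, MT1G, MT1M, MT1X and MT2A, the zinc exporter SLC30A1 and the transcription factor MTF1, which are 8 of the 61815 entries with an Ensembl identifier in the table. They were taken by their symbols, a choice made with earlier results of these data known. The study asked what the Mediator kinases CDK8 and CDK19 do in these cells, by RNA sequencing of 48 libraries in 16 groups of 3. Rv1-WT was the parental line and Rv1-Luc its derivative transduced with firefly luciferase. Both were grown with fetal bovine serum (FBS) and, separately, with the same kind of serum after charcoal stripping (CSS), a treatment that removes androgens and may also alter serum metals. The dKO lines all descend from 22Rv1 cells whose CDK8 and CDK19 were knocked out, and were grown in FBS only. dKO-8 and dKO-19 re-expressed wild-type CDK8 or CDK19 from a lentivirus, and dKO-8M and dKO-19M the kinase-inactive mutants. For 72 hours each line and medium received either 500 nM SNX631, which inhibits CDK8 and CDK19, or the vehicle, 0.1% DMSO. Cultures in CSS had spent an extra passage in CSS and were seeded more densely than those in FBS, so that serum, passage and density cannot be told apart. The labels call the 3 libraries of a group biological triplicates and give no batch.

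Metallothioneins are small cysteine-rich proteins that bind zinc and copper and buffer the free metal inside the cell. Their transcription is switched on by MTF1, a zinc-finger protein that takes up zinc, enters the nucleus and binds short metal response elements in the promoters of metallothionein genes and of SLC30A1. SLC30A1, also called ZnT1, sits in the plasma membrane and pumps zinc out of the cell. In the prostate, normal luminal epithelium accumulates zinc to an unusual degree, and prostate cancers generally lose this. Metallothionein genes are also known to respond to copper, cadmium, oxidants and glucocorticoids.

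The 6 metallothionein genes lie in a single cluster on chromosome 16 (positions from GENCODE 29 on GRCh38). In chromosomal order these were MT2A at chr16:56608199-56609497, MT1E at chr16:56625475-56627112, MT1M at chr16:56632233-56633986, MT1F at chr16:56657694-56660698, MT1G at chr16:56666731-56668065 and MT1X at chr16:56682424-56684196. All are on the plus strand except MT1G. MTF1 is at chr1:37809567-37859620 and SLC30A1 at chr1:211571568-211578742, both on the minus strand of chromosome 1. Promoter windows of 300 bases, from 250 before to 50 after the RefSeq start site on GRCh38.p14, were at hand for 4 of the 8 genes. They are shown because the metal response element links these genes to MTF1. The core of that element was searched on both strands as TGCACNC or TGCGCNC, and matches are in capitals, those on the other strand in their reverse complement. The MT2A window is chr16:56608334-56608633 on the plus strand, MT1X chr16:56682220-56682519 on the plus strand, SLC30A1 chr1:211579112-211579411 on the minus strand and MTF1 chr1:37859543-37859842 on the minus strand.
MT2A: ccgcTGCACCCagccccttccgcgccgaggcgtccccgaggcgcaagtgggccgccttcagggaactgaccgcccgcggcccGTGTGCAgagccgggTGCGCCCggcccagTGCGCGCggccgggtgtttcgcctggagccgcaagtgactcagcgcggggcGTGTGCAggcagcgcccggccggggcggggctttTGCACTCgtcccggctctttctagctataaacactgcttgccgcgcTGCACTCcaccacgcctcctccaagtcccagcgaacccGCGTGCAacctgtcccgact
MT1X: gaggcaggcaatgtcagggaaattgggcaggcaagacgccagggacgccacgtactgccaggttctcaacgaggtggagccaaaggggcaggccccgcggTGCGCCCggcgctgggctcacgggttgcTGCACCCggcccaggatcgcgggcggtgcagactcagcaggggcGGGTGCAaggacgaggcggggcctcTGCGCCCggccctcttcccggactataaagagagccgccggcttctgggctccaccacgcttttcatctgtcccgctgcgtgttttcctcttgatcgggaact
SLC30A1: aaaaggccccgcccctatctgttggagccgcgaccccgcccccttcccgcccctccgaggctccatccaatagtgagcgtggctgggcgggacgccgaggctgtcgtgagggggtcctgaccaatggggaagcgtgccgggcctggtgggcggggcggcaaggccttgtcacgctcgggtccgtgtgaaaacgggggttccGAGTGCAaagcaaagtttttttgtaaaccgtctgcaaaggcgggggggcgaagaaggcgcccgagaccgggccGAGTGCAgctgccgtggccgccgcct
MTF1: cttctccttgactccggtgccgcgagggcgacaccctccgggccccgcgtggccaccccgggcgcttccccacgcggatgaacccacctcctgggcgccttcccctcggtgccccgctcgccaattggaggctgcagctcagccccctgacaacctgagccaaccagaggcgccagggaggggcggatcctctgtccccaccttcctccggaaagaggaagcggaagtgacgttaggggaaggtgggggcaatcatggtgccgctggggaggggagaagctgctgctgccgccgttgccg
The MT2A window held 8 matches, MT1X 4, SLC30A1 2 and MTF1 0. Of 34796 distinct promoter windows of the same length, 29.5% held at least 1 match, 8.6% at least 2, 0.598% at least 4 and 0.0201% at least 8. The MT2A matches were 6 of TGCACNC and 2 of TGCGCNC, and those of MT1X 2 of each. A match is only a run of letters, and no match in MTF1 says only that these letters are not in its window. The windows for MT1E, MT1F, MT1G and MT1M were not used here.

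**Figure D1:**
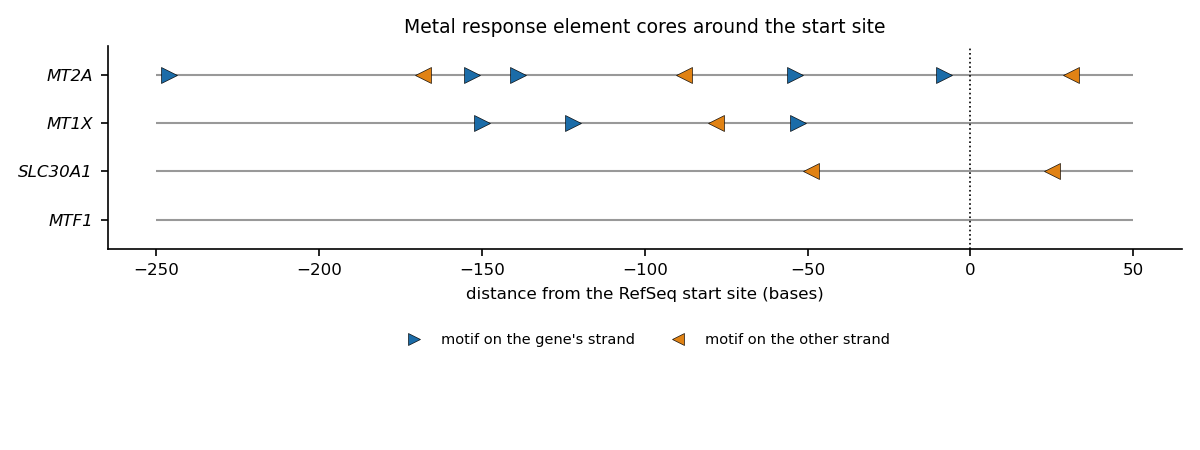
Positions of the metal response element core in 4 promoter windows. The x axis gives the distance in bases from the RefSeq start site, and arrowheads mark matches on the gene's own strand (right) or the other strand (left). MT2A carried 8 matches, MT1X 4, SLC30A1 2 and MTF1 0.

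Library totals ran from 13231860 to 31496134 counts, with the Rv1-WT libraries the shallowest at 13231860 to 18202460. Markers were read from lists over all 48 libraries. All 8 prostate luminal markers were at a mean of at least 1 CPM, the count scaled to library size, with a summed level of 2191 to 5192 CPM per library, among them KLK3 and HOXB13. For fibroblasts 2 of 5 markers (COL1A1 and LUM) reached a mean of 1 CPM, with a summed level of 3.02 to 26.5 CPM, and no leukocyte, B or plasma cell or endothelial marker did. The B and plasma cell markers summed to 0 to 21.2 CPM per library, and the other 2 lists to less than 1. What part such RNA has in any result was not tested. The re-expressed kinases stood out in RNA. Under vehicle CDK8 was at 118 to 125 CPM in dKO-8M and 67.1 to 71.5 in dKO-8, against 26.4 to 27.3 in Rv1-WT in FBS. CDK19 was at 505 to 519 CPM in dKO-19 and 298 to 354 in dKO-19M, against 148 to 150 in Rv1-WT. RNA of the knocked-out genes was still counted, CDK8 at 26.1 to 28.9 CPM in dKO-19 and CDK19 at 101 to 105 CPM in dKO-8 under vehicle, so these levels do not check the knockouts. The counts of replicate 1 of dKO-19M under vehicle stood farthest from those of its replicates. Its chi-square divided by the degrees of freedom was 17.7 and 17.0, where no other pair of replicates exceeded 9.69. Next came replicate 1 of Rv1-Luc in FBS under vehicle, at 9.69 and 5.14. Without that library only the metallothionein and zinc-response genes were refitted. Called changes that rest on the dKO-19M library and are named below were also fitted without it. Of the listed genes in dKO-19M against dKO-19, HSPA6 was called only with it, and HMOX1 and SRXN1 only without it. Without it, SNX631 in dKO-19M still called none of the metallothionein and zinc-response genes and none of the listed genes.

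Levels below are CPM with TMM scaling (trimmed mean of M values), with the SD over 3 libraries, and comparisons are log2 fold changes from edgeR's quasi-likelihood test. A gene was called when its false discovery rate (FDR), adjusted over the 20009 genes with enough counts, was below 0.01 and its fold change above 1.5. Of the 8 genes 7 had enough counts to be tested. MT1M had 8.5 counts in all 48 libraries together, at most 2 in any library, and was not tested. Fewer cells that express a gene and less RNA per cell cannot be told apart in such bulk libraries.

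Among the metallothioneins MT2A, an isoform that most tissues express, had the highest level per length in each of the 16 groups. Per kilobase of exon, the group means of MT2A ran from 24.7 to 90.8 CPM, while those of MT1E reached 5.22, MT1G 5.68, MT1X 1.93 and MT1F 0.775. On the same scale SLC30A1 ran from 5.23 to 10.9 and MTF1 from 3.19 to 4.5. The length was that of all annotated exons of a gene together. For MT2A (1299 bases) and MT1X (1773) it equals the whole span of the gene, so levels per length compare genes only roughly. MT2A was highest in the dKO lines and the MT1 genes were highest in Rv1-WT, as the plot of levels by library shows.

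**Figure D2:**
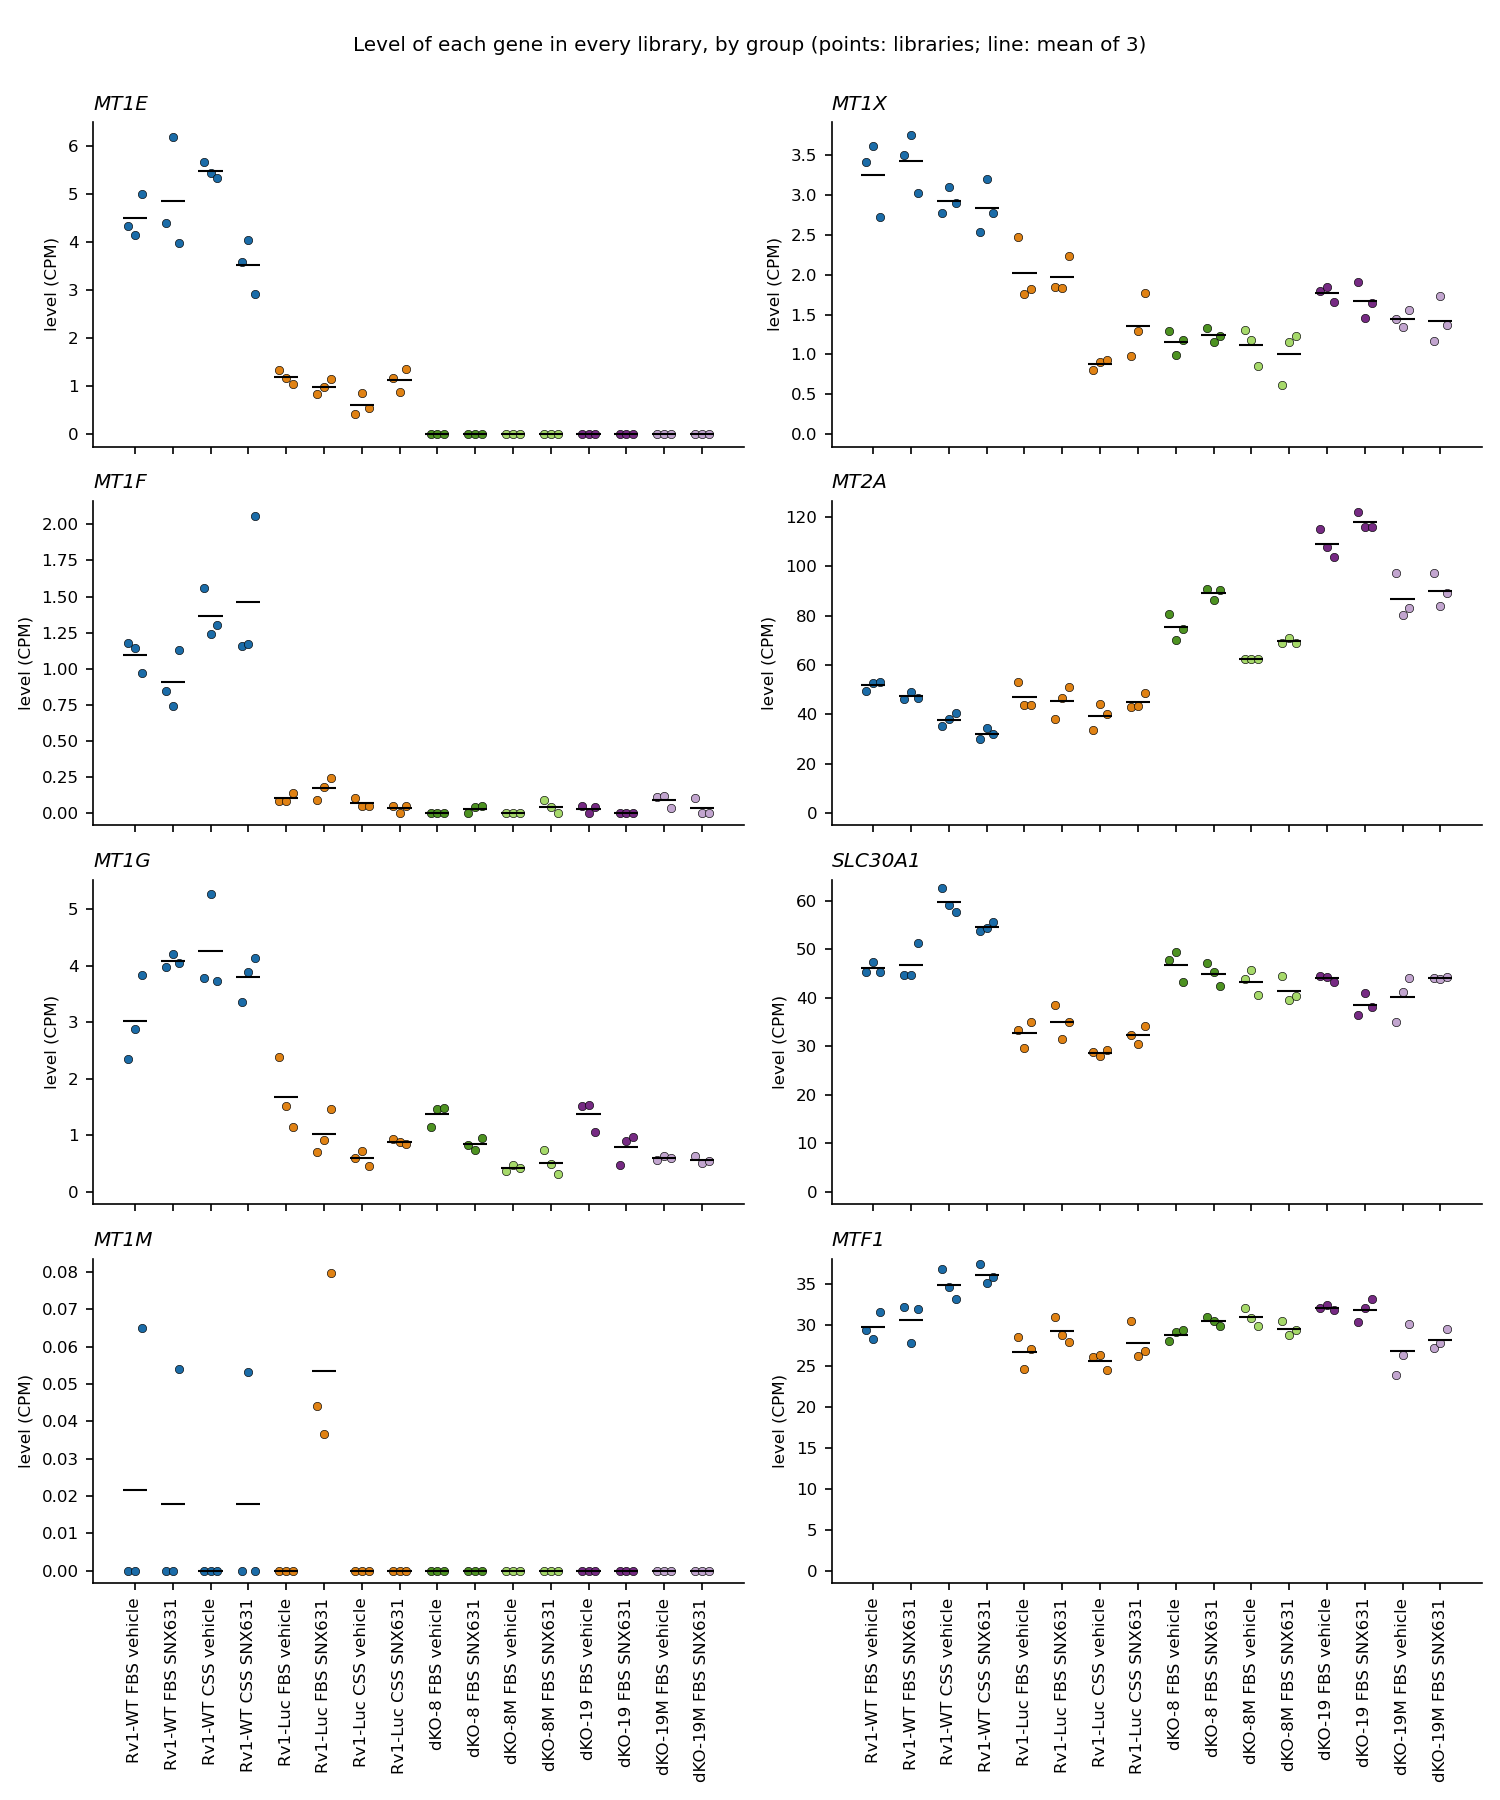
Level of each of the 8 genes in every library, in CPM on a linear axis that starts at 0, by the 16 groups. Points are libraries and lines the mean of 3. MT1E was at 0 in all 24 dKO libraries, MT2A at 62.3 CPM or more there and at 53.3 CPM or less in all others.

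MTF1, the zinc sensor, varied least. Its group means ran from 25.6 CPM ± 0.999 (SD, n = 3) in Rv1-Luc in CSS under vehicle to 36.1 ± 1.14 in Rv1-WT in CSS under SNX631. Over all 48 libraries the lowest was 23.9, the median 29.8 and the highest 37.4 CPM, the lowest being the dKO-19M library that stood apart and the next 24.5. Both Rv1-WT groups in CSS, whose libraries overlapped each other, stood above the rest in their means, and every neighbouring pair below them in the order overlapped.

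SLC30A1, the exporter, spread more widely. It was at 59.8 CPM ± 2.56 in Rv1-WT in CSS under vehicle, at 54.6 ± 0.941 in the same cells under SNX631, and at 28.6 ± 0.585 in Rv1-Luc in CSS under vehicle. The 12 Rv1-Luc libraries ran from 28.0 to 38.4 CPM with a median of 31.9, and the 12 Rv1-WT libraries from 44.6 to 62.6 with a median of 52.5. The lines did not overlap. The dKO libraries, all in FBS, overlapped both. They ran from 35.0 CPM in the dKO-19M library that stood apart (36.4 without it) to 49.4 in a dKO-8 library. In the order of group means every neighbouring pair from Rv1-WT in FBS down to Rv1-Luc in CSS under SNX631 overlapped.

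MT2A separated the dKO lines from Rv1-WT and Rv1-Luc, but not Rv1-Luc from Rv1-WT. Its median was 116 CPM (104 to 122, n = 6) in dKO-19, 86.6 (80.2 to 97.3) in dKO-19M, 83.6 (70.2 to 90.7) in dKO-8 and 65.7 (62.3 to 70.9) in dKO-8M. In Rv1-Luc it was 43.7 CPM (33.7 to 53.2, n = 12) and in Rv1-WT 43.4 (29.8 to 53.3). No dKO library overlapped a library of Rv1-WT or Rv1-Luc. MT2A counts ran from 515 to 2704, and 33.3% of libraries had a fractional count for it, as when reads are shared with another gene.

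MT1E showed the sharpest break. All 12 Rv1-WT libraries held 53.5 to 103 counts, 929 in sum, and all 12 Rv1-Luc libraries 12 to 33 counts, 274 in sum. In the 24 dKO libraries, each with 19270958 to 31496134 counts in total, MT1E had 0 counts, which allows up to 3 counts per library. MT1F followed the same order at lower depth, with 250 counts in the 12 Rv1-WT libraries, 27 in the 12 Rv1-Luc libraries and 16 in 10 of the 24 dKO libraries. These 2 genes were therefore measured well only in Rv1-WT and, for MT1E, in Rv1-Luc.

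MT1G and MT1X were counted in every library, though thinly. MT1G, a metallothionein known to be induced strongly by metals, had 40 to 85 counts per library in Rv1-WT, 10 to 59 in Rv1-Luc and 6 to 38 in the dKO lines. MT1X had 42.5 to 60.5 counts in Rv1-WT, 19.5 to 61.0 in Rv1-Luc and 14 to 42 elsewhere. MT1X counts were fractional in 56.2% of libraries, and a processed transcript, AC026461.1, overlaps it on the same strand, so its counts are uncertain.

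The first question was whether CSS moved these genes. In Rv1-WT under vehicle none of the 7 tested genes was called, in a comparison where 10.9% of all genes were. SLC30A1 was at 62.6, 59.1 and 57.7 CPM in CSS against 45.3, 47.4 and 45.4 in FBS, a log2 change of 0.38 ± 0.0679 (SE, FDR = 4.62e-06). MTF1 was at 36.8, 34.6 and 33.2 CPM against 29.3, 28.2 and 31.5, a log2 change of 0.23 ± 0.0682 (FDR = 0.00393). MT2A was at 35.2, 38.1 and 40.4 CPM against 49.4, 52.6 and 53.3, a log2 change of -0.45 ± 0.0949 (FDR = 0.000136). For each of these 3 genes the media did not overlap, and each difference was below the fold limit. MT1E (0.29 ± 0.182, FDR = 0.211) and MT1F (0.31 ± 0.335, FDR = 0.483) were also higher in every CSS library than in any FBS library. How many of all genes separated the groups in this way was not counted, here or in the comparisons below. MT1G was at 3.78, 5.27 and 3.73 CPM in CSS against 2.35, 2.88 and 3.83, so the media overlapped (FDR = 0.0372).

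Under SNX631 the comparison of media in Rv1-WT called 0 of 7 genes against 7.83% of all genes, and MT2A, SLC30A1 and MTF1 kept their signs. MT1E (0.29 under vehicle and -0.45 under SNX631) and MT1G (0.49 and -0.10) did not, and none of these 4 values was called. MT2A was at 29.8, 34.5 and 31.9 CPM in CSS against 46.3, 49.1 and 46.7 in FBS, a log2 change of -0.56 ± 0.0973 (FDR = 9.34e-06), just inside the fold limit. SLC30A1 was at 53.8, 54.3 and 55.6 CPM against 44.6, 44.6 and 51.2 (0.22 ± 0.068, FDR = 0.00758). The log2 change of MTF1 was 0.23 ± 0.0673 (FDR = 0.00399). All 3 genes separated the media in every library, SLC30A1 and MTF1 upwards and MT2A downwards. MT1F, at 0.67 ± 0.339 (FDR = 0.11), also separated them upwards. The share of all genes that did so was not counted, and 40.6% of all genes had an FDR below 0.05 here. The comparisons in Rv1-WT under vehicle and under SNX631 use different libraries.

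In Rv1-Luc under vehicle 2 of 7 genes fell in CSS, against 1.49% of all genes called. MT1F, with 5 counts in all in CSS and 7 in FBS, was too thinly counted for a fold. MT1G was at 0.598, 0.722 and 0.462 CPM (17, 16 and 10 counts) in CSS and at 2.39, 1.51 and 1.14 CPM (59, 36 and 25 counts) in FBS. Its log2 change was -1.50 ± 0.275 (FDR = 5.63e-05). MT1X was at 0.809, 0.902 and 0.924 CPM in CSS and at 2.47, 1.76 and 1.82 in FBS, a log2 change of -1.21 ± 0.215 (FDR = 3.27e-05). For both genes all 3 CSS libraries lay below all 3 FBS libraries, and both calls held in each of the 6 fits that left out 1 library. These fits include that without replicate 1 in FBS, which had the highest MT1G and MT1X of its group and stood off from its replicates. MT1E was at 0.422, 0.857 and 0.554 CPM in CSS against 1.34, 1.17 and 1.04, a log2 change of -0.98 ± 0.287 that missed the FDR limit (FDR = 0.0154). MT2A in these cells was at 33.7, 44.0 and 40.0 CPM against 53.2, 43.7 and 43.7, with overlapping media (-0.26 ± 0.0889, FDR = 0.0399).

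Under SNX631, CSS called 0 of 7 genes in Rv1-Luc, against 1.51% of all genes. MT1X was at 0.981, 1.3 and 1.77 CPM in CSS and at 1.85, 1.83 and 2.23 in FBS, so the media did not overlap. MT1G was at 0.932, 0.881 and 0.839 CPM against 0.704, 0.913 and 1.47, and there the media overlapped.

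The 2 lines were then compared in their response to CSS under vehicle. The difference of the log2 changes, Rv1-Luc minus Rv1-WT, was called for 3 of 7 genes, all lower, against 8.65% of all genes. MT1F was too thinly counted in Rv1-Luc for a fold. It was -1.99 ± 0.34 for MT1G (FDR = 3.22e-06), -1.27 ± 0.339 for MT1E (FDR = 0.00284) and -1.05 ± 0.281 for MT1X (FDR = 0.00219). SLC30A1 differed by -0.56 ± 0.0979 (FDR = 4.44e-06), below the fold limit: it was higher in CSS in Rv1-WT and at 28.8, 28.0 and 29.2 CPM in CSS against 33.3, 29.7 and 34.9 in Rv1-Luc. MTF1 differed by -0.29 ± 0.0948 (FDR = 0.0133) and MT2A by 0.18. The calls for MT1E and MT1X were lost without replicate 1 of Rv1-Luc in FBS under vehicle (-1.17 and -0.87) or without replicate 1 of Rv1-Luc in CSS under vehicle (-1.03 and -0.99), and both were lost with libraries thinned to equal depth (-1.06 and -1.16). The call for MT1G held whichever library was left out.

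**Figure D3:**
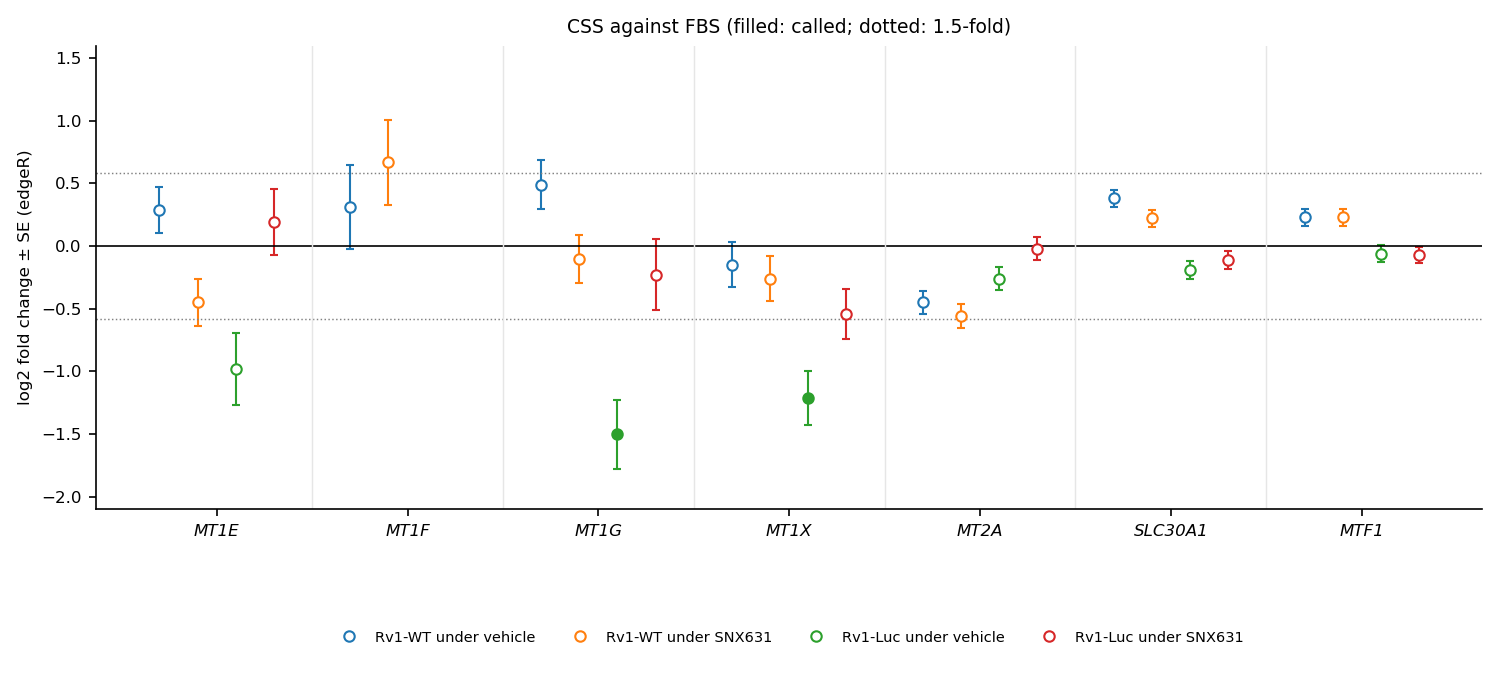
Log2 fold change of CSS against FBS with its SE for 7 genes in 4 settings, where filled points were called, dotted lines mark 1.5-fold, and genes whose counts were too low in a setting for a fold are left out. The filled points are MT1G at -1.50 and MT1X at -1.21 in Rv1-Luc under vehicle, and SLC30A1 lies above 0 only in Rv1-WT.

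The second question was whether SNX631 moved these genes. Over the 8 settings of line and medium, 1 test was called. In the dKO lines MT1E was at 0 and MT1F at or under 3 counts in both arms, so neither could be called there and 5 genes remained. In Rv1-Luc with CSS MT1F was also at or under 3 counts per library in both arms. With FBS it had 13 counts in all under SNX631 and 7 under vehicle. Under SNX631, 0 of 7 genes were called in Rv1-WT with FBS (2.39% of all genes called) and 1 with CSS (4.23%). In Rv1-Luc 0 were called with FBS (3.67%) and 0 with CSS (4.06%). In the dKO lines 0 were called in dKO-8 (1.71%), dKO-8M (0.015%), dKO-19 (3.41%) and dKO-19M (0.09%). The log2 changes of MT2A ran from -0.24 to 0.24, those of SLC30A1 from -0.19 to 0.18 and those of MTF1 from -0.07 to 0.13. The deeper-counted genes thus stayed within 1.5-fold of vehicle in each of the 8 settings.

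The call was MT1E in Rv1-WT in CSS, at 3.59, 4.05 and 2.93 CPM (62, 76 and 53.5 counts) under SNX631 and 5.67, 5.45 and 5.34 CPM (102, 88 and 103 counts) under vehicle. Its log2 change was -0.64 ± 0.184 (FDR = 0.00783). All SNX631 libraries lay below all vehicle libraries, but 5 of the 6 fits with 1 library left out lost the call, with log2 changes of -0.75 to -0.52 over the 6. It was also lost with libraries thinned to equal depth (FDR = 0.0446) and with DESeq2 (FDR = 0.0169). In Rv1-Luc in CSS the same gene was at 1.18, 0.881 and 1.35 CPM under SNX631 and 0.422, 0.857 and 0.554 under vehicle (0.92 ± 0.295, FDR = 0.0184), which was not called.

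MT1G was measured in every setting and had 2 tests of SNX631 with an FDR below 0.05. It was at 0.704, 0.913 and 1.47 CPM under SNX631 against 2.39, 1.51 and 1.14 in Rv1-Luc in FBS (-0.71 ± 0.244, FDR = 0.0303), with overlap. In dKO-19 it was at 0.479, 0.901 and 0.974 CPM against 1.51, 1.54 and 1.05 (-0.78 ± 0.284, FDR = 0.0404), without overlap. In dKO-8 it was at 0.822, 0.747 and 0.943 CPM against 1.15, 1.46 and 1.49 (-0.72 ± 0.272, FDR = 0.0698), also without overlap. The log2 change of MT1G was 0.35 in dKO-8M and -0.07 in dKO-19M. In Rv1-WT in FBS it was at 3.98, 4.21 and 4.04 CPM against 2.35, 2.88 and 3.83, in the other direction. MT1X was at 0.981, 1.3 and 1.77 CPM against 0.809, 0.902 and 0.924 in Rv1-Luc in CSS (0.63 ± 0.236, FDR = 0.0435). None of these tests was called.

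MT2A and SLC30A1 each had 1 test of SNX631 with an FDR below 0.05. MT2A in dKO-8 was at 90.7, 86.4 and 90.5 CPM under SNX631 and 80.9, 70.2 and 74.7 under vehicle (0.24 ± 0.0808, FDR = 0.0369). SLC30A1 in dKO-19 was at 36.4, 40.9 and 38.1 CPM against 44.5, 44.3 and 43.3 (-0.19 ± 0.0678, FDR = 0.0333). In both cases the groups did not overlap and the difference was below the fold limit.

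**Figure D4:**
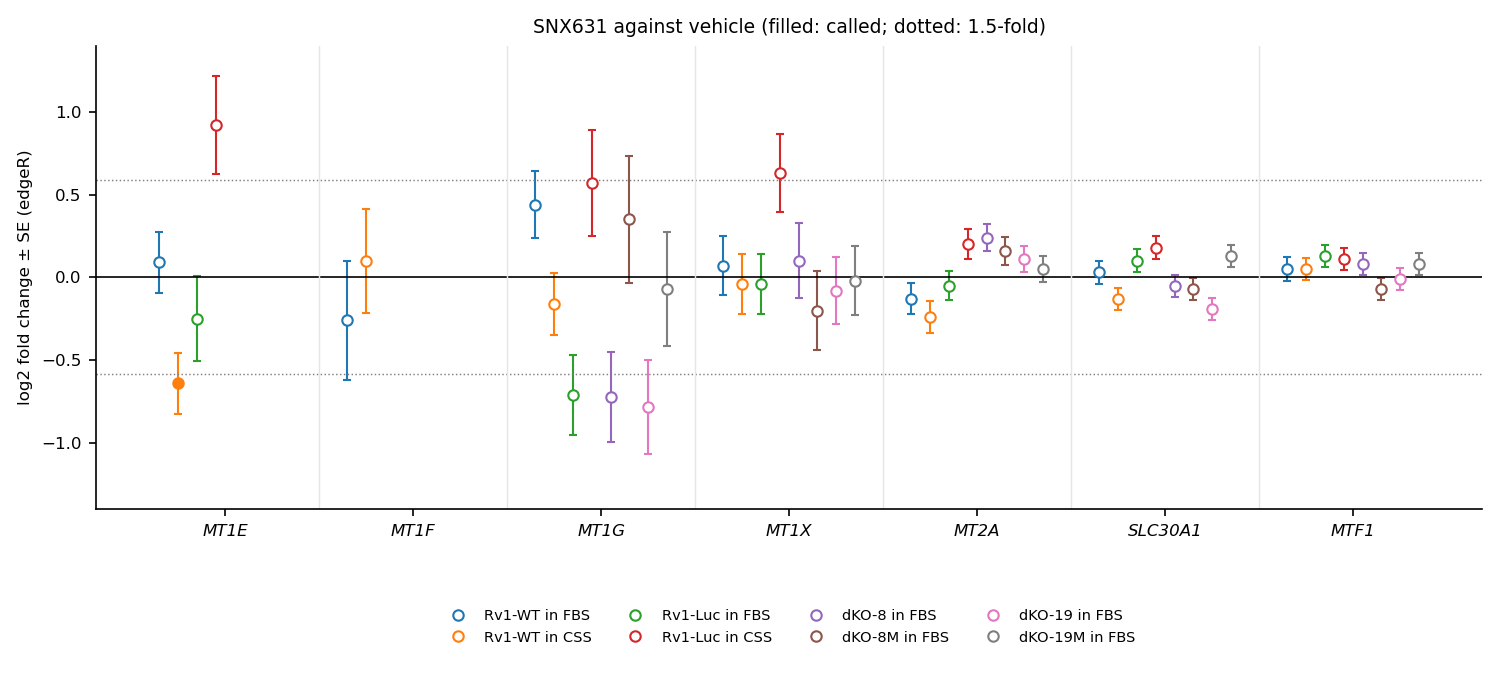
Log2 fold change of SNX631 against vehicle with its SE for 7 genes in 8 settings, where filled points were called, dotted lines mark 1.5-fold, and genes whose counts were too low in a setting for a fold are left out. MT2A, SLC30A1 and MTF1 lie between -0.24 and 0.24 throughout, and the filled point is MT1E in Rv1-WT in CSS at -0.64.

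Differences between settings in the SNX631 effect were not called for any of the genes with counts to compare. This leaves out MT1E and MT1F between dKO lines, and MT1F between media in Rv1-Luc. The share of all genes called was 0.295% for CSS minus FBS in Rv1-WT, 0.08% for CSS minus FBS in Rv1-Luc and 0.175% for Rv1-Luc minus Rv1-WT in FBS. It was 0.905% for dKO-8 minus dKO-8M, 2.07% for dKO-19 minus dKO-19M and 0.885% for dKO-19 minus dKO-8. For Rv1-Luc minus Rv1-WT, the effect of SNX631 on MT1G in FBS differed by -1.14 ± 0.317 (FDR = 0.0464). SLC30A1 differed by -0.33 ± 0.0949 between dKO-19 and dKO-19M (FDR = 0.0163), and by -0.24 (FDR = 0.0799) without replicate 1 of dKO-19M under vehicle.

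The kinase-inactive lines were compared with their active counterparts under vehicle. MT1E and MT1F were at 0 or at most 3 counts per library in both arms, which left 5 genes that could be called. In both pairs 1 was called, MT1G, and it was lower with the inactive kinase. The share of all genes called was 7.03% for dKO-8M against dKO-8 and 7.6% for dKO-19M against dKO-19. MT1G was at 0.36, 0.465 and 0.428 CPM (11, 11 and 8 counts) in dKO-8M and 1.15, 1.46 and 1.49 CPM (24, 28 and 38 counts) in dKO-8. Its log2 change was -1.72 ± 0.313 (FDR = 1.12e-05). In dKO-19M it was at 0.557, 0.631 and 0.595 CPM (15, 16 and 16 counts) and in dKO-19 at 1.51, 1.54 and 1.05 CPM (32, 30 and 24 counts), a log2 change of -1.18 ± 0.286 (FDR = 0.000771). In each pair all libraries with the inactive kinase lay below all libraries with the active one. Without replicate 1 of dKO-19M the log2 change was -1.14 (FDR = 0.004), and both calls held whichever library was left out. With all libraries thinned to the same depth the call in the dKO-19 pair was lost (-1.38, FDR = 0.0108).

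MT2A was also lower with the inactive kinases, by less than 1.5-fold. It was at 62.5, 62.3 and 62.4 CPM in dKO-8M against 80.9, 70.2 and 74.7 in dKO-8 (-0.27 ± 0.0827, FDR = 0.0104). In dKO-19M it was at 97.2, 80.2 and 83 CPM against 115, 108 and 104 in dKO-19 (-0.33 ± 0.0788, FDR = 0.00107), and at -0.42 (FDR = 0.000137) without replicate 1. Neither pair overlapped. MTF1 was at 23.9, 26.3 and 30.1 CPM in dKO-19M against 32.1, 32.4 and 31.8 in dKO-19 (-0.26 ± 0.0642, FDR = 0.000855), and at -0.19 (FDR = 0.0202) without replicate 1. Each kinase form was present in 1 line, so that kinase activity and line cannot be told apart within a pair.

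Rv1-Luc and Rv1-WT were compared in FBS under vehicle. Of 7 genes 4 were lower in Rv1-Luc, all of the MT1 family, against 17.8% of all genes called. MT1F had enough counts to be tested only through Rv1-WT, so that it could only be called lower. MT1E was at 1.34, 1.17 and 1.04 CPM in Rv1-Luc and 4.35, 4.15 and 5.0 in Rv1-WT (-1.92 ± 0.216, FDR = 6.52e-10). MT1F had 2, 2 and 3 counts in Rv1-Luc and 20, 17 and 15 in Rv1-WT, a ratio of 11.1 with a 95% counting interval of 5.01 to 28.9. These 2 genes separated the lines widely.

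The other 2 calls were smaller. MT1G was at 2.39, 1.51 and 1.14 CPM against 2.35, 2.88 and 3.83 (-0.83 ± 0.219, FDR = 0.00121), with overlap. MT1X was at 2.47, 1.76 and 1.82 CPM against 3.41, 3.62 and 2.73 (-0.68 ± 0.182, FDR = 0.00123), without overlap. Each of these calls was lost in 2 of the 6 fits that left out 1 library: MT1G without replicate 3 of either line (-0.62 in both) and MT1X without replicate 2 of either line (-0.61 without that of Rv1-WT and -0.59 without that of Rv1-Luc). Both were also lost in a fit of these libraries alone (FDR = 0.0188 and 0.0125), and MT1X with libraries thinned to equal depth (FDR = 0.0301). SLC30A1 was at 33.3, 29.7 and 34.9 CPM against 45.3, 47.4 and 45.4, a difference of -0.50 ± 0.0702 (FDR = 2.18e-08) that was below the fold limit although the lines did not overlap.

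Because MT1E and MT1F were at or near 0 in the dKO lines, dKO-8 and dKO-19 were compared with Rv1-WT in FBS under vehicle after these values had been seen. Of 7 genes 4 were lower in dKO-8 (23.3% of all genes called), and 4 were lower and 1 higher in dKO-19 (22.0%). MT1E and MT1F had enough counts to be tested only through Rv1-WT and, for MT1E, Rv1-Luc. For both genes a lower call was thus fixed in advance by the count filter and the choice of comparison. With a floor of 3 counts per library, MT1E was at least 32.2-fold lower in dKO-8 and at least 31.7-fold lower in dKO-19. MT1F was at least 7.85-fold lower in dKO-8. For dKO-19, where it had 2 counts against 52, the ratio was 34.9 (interval 9.19 to 296). Both comparisons share the Rv1-WT libraries.

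MT1G was lower by like amounts in both lines, its log2 change being -1.13 ± 0.23 (FDR = 2.85e-05) for dKO-8 and -1.15 ± 0.232 (FDR = 2.59e-05) for dKO-19. MT1X was lower too, with log2 changes of -1.48 ± 0.203 (FDR = 6.52e-09) and -0.88 ± 0.189 (FDR = 6.55e-05). MT2A went the other way. It was at 115, 108 and 104 CPM in dKO-19 against 49.4, 52.6 and 53.3 in Rv1-WT, a log2 change of 1.07 ± 0.0858 (FDR = 6.39e-14), and it rose past the limit. In dKO-8, at 80.9, 70.2 and 74.7 CPM, it differed by 0.54 ± 0.0875 (FDR = 1.28e-06) without being called. SLC30A1 was not called either, at 0.02 (FDR = 0.833) for dKO-8 and -0.06 (FDR = 0.442) for dKO-19. The dKO lines also went through editing and transduction that Rv1-WT did not, and the effects of these and of the kinases cannot be told apart.

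The loss of MT1E and MT1F counts was set beside their neighbours on chromosome 16. Just outside the cluster, OGFOD1 had line means of 62.6 to 90.4 CPM, BBS2 of 41.2 to 49.7 and NUP93, a nuclear pore subunit, of 62.7 to 99.7, so the flanks were counted in every line. Inside it MT1L, a transcribed pseudogene next to MT1E, had 91 counts in the 12 Rv1-WT libraries, 28 in the 12 Rv1-Luc libraries and 0.5 in the 24 dKO libraries together. MT1H, between MT1G and MT1X, had 25 counts in Rv1-WT, 4 in Rv1-Luc and 1.5 in the dKO lines. MT3, next to MT2A, had few counts in each line (44 in Rv1-WT, 108 in Rv1-Luc and 4 to 10 in each dKO line), and MT4 beside it had 2 in all. MT2A, MT1G and MT1X were counted in every library. The cluster thus held genes that were counted everywhere and genes whose counts were nearly confined to Rv1-WT and Rv1-Luc.

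**Figure D5:**
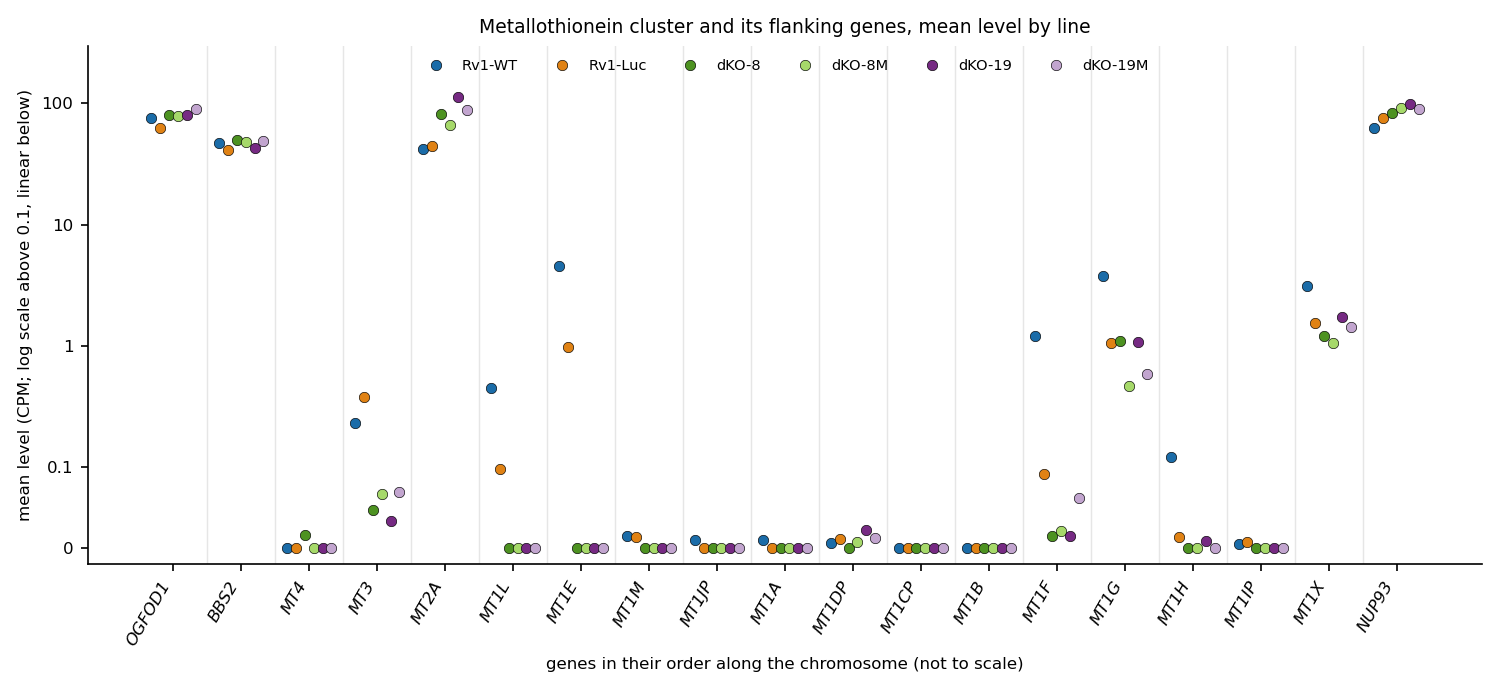
Mean level by line, in CPM on an axis that is logarithmic above 0.1 and linear below, for genes of the metallothionein cluster and its flanks in their order along the chromosome (spacing not to scale). MT1E, and MT1L after rounding, are at 0 in the 4 dKO lines, MT2A lies higher there, and OGFOD1, BBS2 and NUP93 are counted in every line.

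Other genes of metal handling were counted by list, with the same test. Of 7 further metallothionein genes only MT1L and MT3 had enough counts to be tested. MT3, the brain metallothionein, was lower in CSS in Rv1-WT under SNX631, and MT1L was lower in Rv1-Luc, dKO-8 and dKO-19 than in Rv1-WT. The other 5 (MT1A, MT1B, MT1H, MT1HL1 and MT4) had at most 6 counts in any library.

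Of the 8 other SLC30 zinc exporters tested 0 were called in any of the 4 comparisons of CSS with FBS, while the CSS effect on SLC30A10 differed between Rv1-Luc and Rv1-WT (-1.37, FDR = 0.00779). Of the 11 tested SLC39 importers 1 was called, SLC39A8, a carrier of zinc, manganese and cadmium. It was lower in CSS in Rv1-WT under vehicle (-0.67, FDR = 3.31e-18), where 10.9% of all genes were called. The medians of the exporters and importers there were -0.01 and -0.19, against 0.007 over all genes. With SNX631, SLC30A2 rose in Rv1-WT in CSS (1.57, FDR = 0.00477) and SLC30A10, a manganese exporter, in Rv1-Luc in CSS (1.31, FDR = 0.000152), and 0 importers were called in 8 settings. SLC30A2 had at most 19 counts in any library.

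Between lines, SLC39A8 was lower in Rv1-Luc than in Rv1-WT (-0.72) and, in the dKO-19 pair, higher with the inactive kinase (0.67, and 0.66 without the library that stood apart). SLC30A4, an exporter of intracellular vesicles, was higher in dKO-8M, set against dKO-8 (0.70), and lower in dKO-19M, set against dKO-19 (-0.94, and -0.96 without that library). The active and inactive pairs thus gave opposite signs for this exporter. In the dKO-19 pair SLC30A2 was also lower with the inactive kinase, with and without that library. SLC39A11 was lower in Rv1-Luc (-0.64) and in dKO-19 (-0.89) than in Rv1-WT.

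Some copper genes fell with CSS in Rv1-WT. Of 12 tested, 5 were lower under vehicle, where 10.9% of all genes were called, and 4 under SNX631, where 7.83% were, with list medians of -0.44 and -0.33 against 0.007 and 0.008 over all genes. Among them were STEAP2, a metalloreductase of prostate epithelium (-1.07 under vehicle), COX17, the chaperone that carries copper to cytochrome oxidase (-0.90), ATOX1, the chaperone of the copper pumps (-0.93), and STEAP3 (-1.01). In Rv1-Luc 1 of 12 was called under each treatment, STEAP2, at -1.44 under vehicle and -1.39 under SNX631. No copper gene was called with SNX631 in any setting. With an inactive kinase STEAP2 was higher in the dKO-8 pair (0.95) and lower in the dKO-19 pair (-1.29, and -1.19 without the library that stood apart).

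Iron genes gave fewer calls than copper genes with CSS, and with SNX631 the only iron genes called were SLC40A1 and FTL. Of 11 tested, TFRC, the transferrin receptor (-1.24), and HMOX1, the heme oxygenase (-0.97), were lower with CSS in vehicle-treated Rv1-WT. Both were also lower under SNX631 (-0.63 and -1.50), and 0 were called in Rv1-Luc. The shares of all genes called under vehicle and SNX631 were 10.9% and 7.83% in Rv1-WT and 1.49% and 1.51% in Rv1-Luc. With SNX631, SLC40A1, the iron exporter ferroportin, rose in Rv1-Luc (0.72 with FBS, 0.93 with CSS) and dKO-19 (0.71). FTL, the light ferritin chain, fell in Rv1-Luc in FBS (-0.61) and dKO-19 (-0.64). Of all genes, 3.67% were called in Rv1-Luc with FBS, 4.06% with CSS and 3.41% in dKO-19. No iron gene was called with SNX631 in Rv1-WT, dKO-8, dKO-8M or dKO-19M.

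Genes that respond to metals or oxidants outside the metallothioneins were 8, all tested. In Rv1-WT in CSS under vehicle HMOX1 was lower and SLC7A11, the cystine importer, higher (1.14). With SNX631 SLC7A11 fell in 5 of 8 settings, with log2 changes of -0.69 for Rv1-WT with CSS, -1.14 and -1.39 for Rv1-Luc with FBS and CSS, -1.03 for dKO-8 and -1.21 for dKO-19. It was not called in Rv1-WT in FBS, dKO-8M or dKO-19M.

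Of 12 heat shock genes, 7 were lower with CSS in vehicle-treated Rv1-WT and 8 under SNX631 (medians -0.84 and -0.85). There 10.9% and 7.83% of all genes were called. In Rv1-Luc 0 were called under vehicle or SNX631, against 1.49% and 1.51% of all genes. The lowest FDRs under vehicle were those of HSPA8 (-1.4), HSPA1B (-1.43), HSPH1 (-0.91) and DNAJA1 (-0.77), which are not the 4 with the widest changes. HSPA1B counts were fractional in 81.2% of libraries and those of HSPA8 in 62.5%. Of 10 tested glucocorticoid-responsive genes, 3 were higher and 3 lower in CSS in Rv1-WT under vehicle, among them DUSP1 (0.84), KLF9 (-1.26) and FKBP5 (-0.84), a gene that androgens also induce. In Rv1-Luc under vehicle 3 were lower, KLF9 (-1.87), FKBP5 (-0.86) and ZBTB16 (-1.0). These lists are counts beside the metallothioneins, and their part in the metallothionein values was not tested.

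How the genes varied together was read over the 16 group means of log2 CPM, as a description only, since groups of 1 line share their cells. MT1E, MT1F, MT1G and MT1X moved together, with pairwise Pearson correlations of 0.77 to 0.89. MT2A ran against them, at -0.85 with MT1E, -0.66 with MT1F, -0.52 with MT1G and -0.38 with MT1X. MT1E was at 0 in 8 of the 16 groups and MT1F near 0 outside Rv1-WT, so the values for these genes rest on the split between lines and on the offset added before the log. SLC30A1 and MTF1 correlated at 0.80 with each other, and MT2A at 0.01 with SLC30A1 and -0.09 with MTF1. With MTF1 the MT1 genes correlated at 0.25 (MT1E), 0.51 (MT1F), 0.55 (MT1G) and 0.53 (MT1X). With SLC30A1 they correlated at 0.17, 0.55, 0.57 and 0.51 in the same order. Whether MTF1 sets any of these levels was not tested.

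Genes with a pattern most like MT2A over the 16 groups were TSG101 (0.977), GBP1 (0.962), RAB20 (0.96), TPM3 (0.956) and PCBP1 (0.954). Those most unlike it were CACNB1 (-0.969), LINC00663 (-0.953) and DTX3 (-0.95). For SLC30A1 the most alike were KLF3 (0.955), then SEPHS2, PPP4R2, PHF6 and RNF6 (0.954 each), and the least alike AFG3L1P (-0.967), ATAD3B (-0.962) and ALKBH6 (-0.955). All of these had a mean of at least 1 CPM.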

How the data were processed

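Total RNA of 48 cultures was sequenced as strand-specific libraries. The submitters' processing notes name FastQC, cutadapt 2.8, STAR 2.7.2b, featureCounts and Subread 2.0.3, and the builds GRCh38.p13 and GRCm39, without their roles. The authors deposited 1 table of expected counts per gene, in which 81.6% of nonzero values were whole, the others being fractions, as when reads shared between genes are split. Values were rounded, and names were matched for 61766 of 61815 gene IDs. Counts were fitted over all 16 groups with edgeR 4.0.16 (quasi-likelihood, TMM, filterByExpr with a minimum count of 10) in R 4.3.3 with limma 3.58.1, and DESeq2 1.42.0 was an alternative. P-values were adjusted by Benjamini-Hochberg over 20009 genes, and the limits (FDR below 0.01, fold above 1.5) are the study's. Counting intervals cover counting error only. A run of the fit on simulated counts used an assumed spread and set a limit on recovery only for well-counted genes. It does not cover the thinly counted MT1 genes. Members and lists were chosen with earlier results of these data known. Named genes were all members, up to 4 called genes of each list by FDR, and the genes whose group means correlated most with MT2A and SLC30A1. Comparisons of dKO lines with Rv1-WT were added after seeing the data.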

Additional observations from a re-analysis of the deposited data

Results flagged for a closer look

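For 3 metallothionein genes the lines Rv1-Luc and Rv1-WT changed differently with CSS under vehicle, by edgeR's test of the difference itself. The difference, Rv1-Luc minus Rv1-WT, was -1.99 on the log2 scale for MT1G, -1.27 for MT1E and -1.05 for MT1X. Of all genes tested, 8.65% were called in this comparison. The values for MT1E and MT1X were no longer called without replicate 1 of Rv1-Luc in FBS, without replicate 1 of Rv1-Luc in CSS, or with libraries thinned to equal depth, while that for MT1G was called in each of these fits.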

How the results depend on the processing

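The counts of called genes among the 7 tested were recomputed with other settings (relative log expression size factors, library size only, no filter, thinning to equal depth, the deposited fractional counts, counts rounded down, the libraries of a comparison alone, DESeq2, an FDR below 0.05 without a fold limit, and each library left out), and no result reversed. At an FDR below 0.05 with no fold limit, CSS against FBS gave 4 genes in Rv1-WT under vehicle (44.9% of all genes passed), 3 in Rv1-WT under SNX631 (40.6%) and 4 in Rv1-Luc under vehicle (14%). SNX631 gave 1 in Rv1-Luc in FBS (20.3%), 2 in Rv1-Luc in CSS (23.9%), 1 in dKO-8 (13.5%) and 2 in dKO-19 (20.6%). There were 2 in dKO-8M against dKO-8 (30.5%), 3 in dKO-19M against dKO-19 (33.3%), 5 for the difference of lines in CSS effect (34.1%), 1 for that in SNX631 effect in FBS (1.48%) and 1 for dKO-19 minus dKO-19M (9.87%). Thinning left 0 for SNX631 in Rv1-WT in CSS, 0 for dKO-19M against dKO-19 and 1 for the difference in CSS effect. DESeq2 left 0 for SNX631 in Rv1-WT in CSS, and the libraries of the comparison alone left 2 for Rv1-Luc against Rv1-WT. With 1 library left out, the counts ran from 0 to 1 for CSS in Rv1-WT under SNX631, 2 to 3 for CSS in Rv1-Luc under vehicle, 0 to 1 for SNX631 in Rv1-WT in CSS, Rv1-Luc in FBS and Rv1-Luc in CSS, 3 to 4 for Rv1-Luc against Rv1-WT, 1 to 4 for the difference in CSS effect and 4 to 5 for dKO-8 against Rv1-WT. The higher counts came without replicate 2 of Rv1-WT in CSS under SNX631, replicate 2 of Rv1-Luc in CSS under vehicle, replicate 3 of Rv1-Luc in FBS under either treatment and replicate 2 of dKO-8 under vehicle, and for the difference in CSS effect without replicate 3 of Rv1-WT in CSS or replicate 2 of Rv1-Luc in FBS. The cause of these shifts was not tested. Same-numbered replicates did not deviate together (correlations of -0.09 to 0.16, all 3 above 0.1 in 0 of 17 comparisons), and the replicate block changed no count, which stayed at 0 for CSS in Rv1-WT under vehicle and 2 in Rv1-Luc under vehicle. Library size alone shifted the median of all genes by -0.153 for dKO-19 against Rv1-WT. Low counts limit all the MT1 genes, and MT1M could not be tested.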
